A study of Homo sapiens with 8 samples.

Results

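The Hedgehog pathway was followed through 9 of its core components, GLI1, GLI2, GLI3, PTCH1, HHIP, SMO, SUFU, BOC and CDON, out of 20339 genes in the table of raw gene counts. The genes were taken by name for their place in the pathway, and all 9 were found in the table and had more than 3 counts in at least 1 library of every comparison. RNA sequencing had been carried out on 8 libraries from 2 established human ovarian carcinoma cell lines, OVCAR3 and COV318, labelled as epithelial cells from ascites. The study asked how Matrix Gla Protein (MGP), a secreted protein of the extracellular matrix, shapes the transcriptome of ovarian cancer stem cells.

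OVCAR3-CTR was the control line and OVCAR3-MGPKO its knockout, made with Cas9 and a pair of guides to exon 1 of MGP, with sorting of GFP-positive cells and isolation of clones. The labels do not say which clone was sequenced. COV318-CTR carried the empty lentiviral vector and COV318-MGP a vector with the MGP cDNA. Each of the 4 was sequenced once as an adherent culture in serum, called bulk, and once as ovarian cancer stem cells (OCSC). OCSC were spheres grown without attachment in a serum-free medium with EGF, FGF2 and B27, so attachment, serum and growth factors cannot be told apart in any comparison of OCSC with bulk. OVCAR3 was at passage 4 and COV318 at passage 18, so line, passage and medium cannot be told apart either. With 1 library per condition there was no replicate error and no test within a condition, and the 4 cell populations were used as blocks in a test of culture alone. The intervals given below are exact 95% intervals of a ratio of 2 counts, and they cover counting error only.

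Hedgehog ligands bind PTCH1, a receptor that in their absence holds back the membrane protein SMO. BOC and CDON are co-receptors that bind the ligands together with PTCH1, and HHIP is a membrane protein that binds and sequesters them. Once SMO is released, the signal passes through the primary cilium and frees the GLI transcription factors from SUFU, which restrains them in the cytoplasm. GLI2 is mainly an activator, GLI3 is mainly processed to a repressor, and GLI1 is an activator that is itself a target. GLI1, PTCH1 and HHIP are the targets most often read as pathway output, and PTCH1 and HHIP close a negative feedback loop.

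Library totals ranged from 12294591 to 37393919 counts, and counts were divided by median-of-ratios size factors over the 8 libraries to give normalized counts. MGP was at 0 to 2 counts in the 4 OVCAR3 libraries, knockout and control alike, so its level could not check the knockout. In COV318 it had 1 count in CTR bulk, 0 in CTR OCSC, 40393 in MGP bulk and 28694 in MGP OCSC. The COV318-MGP libraries stood apart from their own control, with correlations of log2 values over 20339 genes of 0.747 to 0.757 against COV318-CTR, while COV318-CTR reached 0.798 to 0.806 against the OVCAR3 libraries. Of 10 ovarian carcinoma markers, 5 were at 3 counts or fewer in each COV318-MGP library, and PAX8, KRT7 and SOX17 were at 0 in both, while every other library had all 10 above 3 counts. The summed level of these markers was 2011 in COV318-MGP bulk against 41559.8 in COV318-CTR bulk, and 8492 against 16629 in OCSC. The 3 mesothelial markers in the table summed to 7867 and 3361 in COV318-CTR and to 1.65 and 2.86 in COV318-MGP. Of 7 markers of the HEK293 lineage, the usual packaging line of lentiviruses, 4 were higher and 2 lower in COV318-MGP bulk, against 24.5% and 26.3% of all genes, and 5 higher and 1 lower of 6 above 3 counts in OCSC, against 27.0% and 27.3%. Their sums were 12824 and 6475 in COV318-CTR, bulk and OCSC in turn, with NEFL, NEFM and PAX2 at 0 in both, and 4692 and 4568 in COV318-MGP. DPPA4 alone made up 10568 and 5371 of the COV318-CTR sums and was at 2 counts and 0 in COV318-MGP. As listed, the markers summed higher in COV318-CTR in both cultures, while single markers went both ways. Every comparison of COV318-MGP with COV318-CTR below rests on these libraries, and the part of their marker levels in the Hedgehog results was not tested.

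Promoter sequences are shown for PTCH1, the target with a GLI consensus near a start, for HHIP and SMO, which were higher together in COV318-MGP, and for BOC, which was higher in OCSC in every pair. Each is a RefSeq window of 250 bases before to 50 bases after an annotated start, on build GRCh38.p14, written in the direction of transcription. Capitals mark the GLI consensus GACCACCCA (TGGGTGGTC on the other strand) wherever it occurs. They also mark the GC box, which reads GGGCGG on the strand shown and CCGCCC where it lies on the opposite one. Entries were found for 7 of the 9 genes, all but GLI1 and GLI3.
PTCH1, chr9:95509217-95509516, minus strand: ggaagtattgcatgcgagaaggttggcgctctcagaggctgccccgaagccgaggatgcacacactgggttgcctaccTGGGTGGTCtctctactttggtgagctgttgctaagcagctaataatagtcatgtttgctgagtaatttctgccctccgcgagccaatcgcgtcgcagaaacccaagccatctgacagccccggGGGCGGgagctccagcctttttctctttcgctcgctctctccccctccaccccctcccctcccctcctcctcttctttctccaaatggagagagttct
HHIP, chr4:144645906-144646205, plus strand: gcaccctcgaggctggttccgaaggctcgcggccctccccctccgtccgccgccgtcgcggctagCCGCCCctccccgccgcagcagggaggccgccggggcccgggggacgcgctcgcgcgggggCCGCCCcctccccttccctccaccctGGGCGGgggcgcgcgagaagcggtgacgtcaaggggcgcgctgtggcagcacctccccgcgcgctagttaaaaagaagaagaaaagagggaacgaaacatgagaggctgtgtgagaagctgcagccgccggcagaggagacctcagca
SMO, chr7:129188383-129188682, plus strand: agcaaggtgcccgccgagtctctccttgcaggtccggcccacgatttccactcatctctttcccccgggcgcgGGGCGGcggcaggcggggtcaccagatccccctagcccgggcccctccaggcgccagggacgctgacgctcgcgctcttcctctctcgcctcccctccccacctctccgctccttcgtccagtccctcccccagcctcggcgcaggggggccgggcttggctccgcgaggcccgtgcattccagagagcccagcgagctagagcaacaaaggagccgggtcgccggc
BOC, chr3:113211866-113212165, plus strand: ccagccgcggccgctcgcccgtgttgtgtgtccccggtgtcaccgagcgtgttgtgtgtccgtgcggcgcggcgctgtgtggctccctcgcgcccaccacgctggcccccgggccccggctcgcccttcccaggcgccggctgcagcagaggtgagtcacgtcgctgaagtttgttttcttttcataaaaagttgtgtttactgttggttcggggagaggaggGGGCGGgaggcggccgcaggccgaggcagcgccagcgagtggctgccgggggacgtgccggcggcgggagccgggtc
Among the windows of the 7 genes, the GLI consensus was present in 1 of the 5 PTCH1 windows, on the reverse strand with its first base at -172 from the start. It was present in 83 of 35116 windows of all genes (0.236%), or in 81 of 27305 genes (0.297%). The GC box was in 45.0% of all windows, 3 times in that of HHIP, once in that of SMO and once in the BOC window shown. A match is a match of letters in a window and no evidence of binding.

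Of the 9 genes, GLI1 varied most across the 8 libraries and PTCH1 and GLI2 least. The highest normalized count was 199 times the lowest for GLI1, 65.7 times for HHIP, 59.0 times for SMO, 27.5 times for CDON and 23.3 times for BOC. It was 4.01 times the lowest for GLI3, 3.43 times for SUFU, 2.94 times for GLI2 and 2.91 times for PTCH1. The genes thus fell into 5 with wide ranges, GLI1, HHIP, SMO, CDON and BOC, and 4 with ranges of about 3- to 4-fold. Of the proteins that bind the ligands, HHIP, BOC and CDON were among the wide ones and PTCH1 among the narrow ones. The values for HHIP and GLI1 rest on few reads at the low end, since HHIP had 2 counts in COV318-CTR OCSC and GLI1 had 3 in OVCAR3-MGPKO OCSC.

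**Figure D1:**
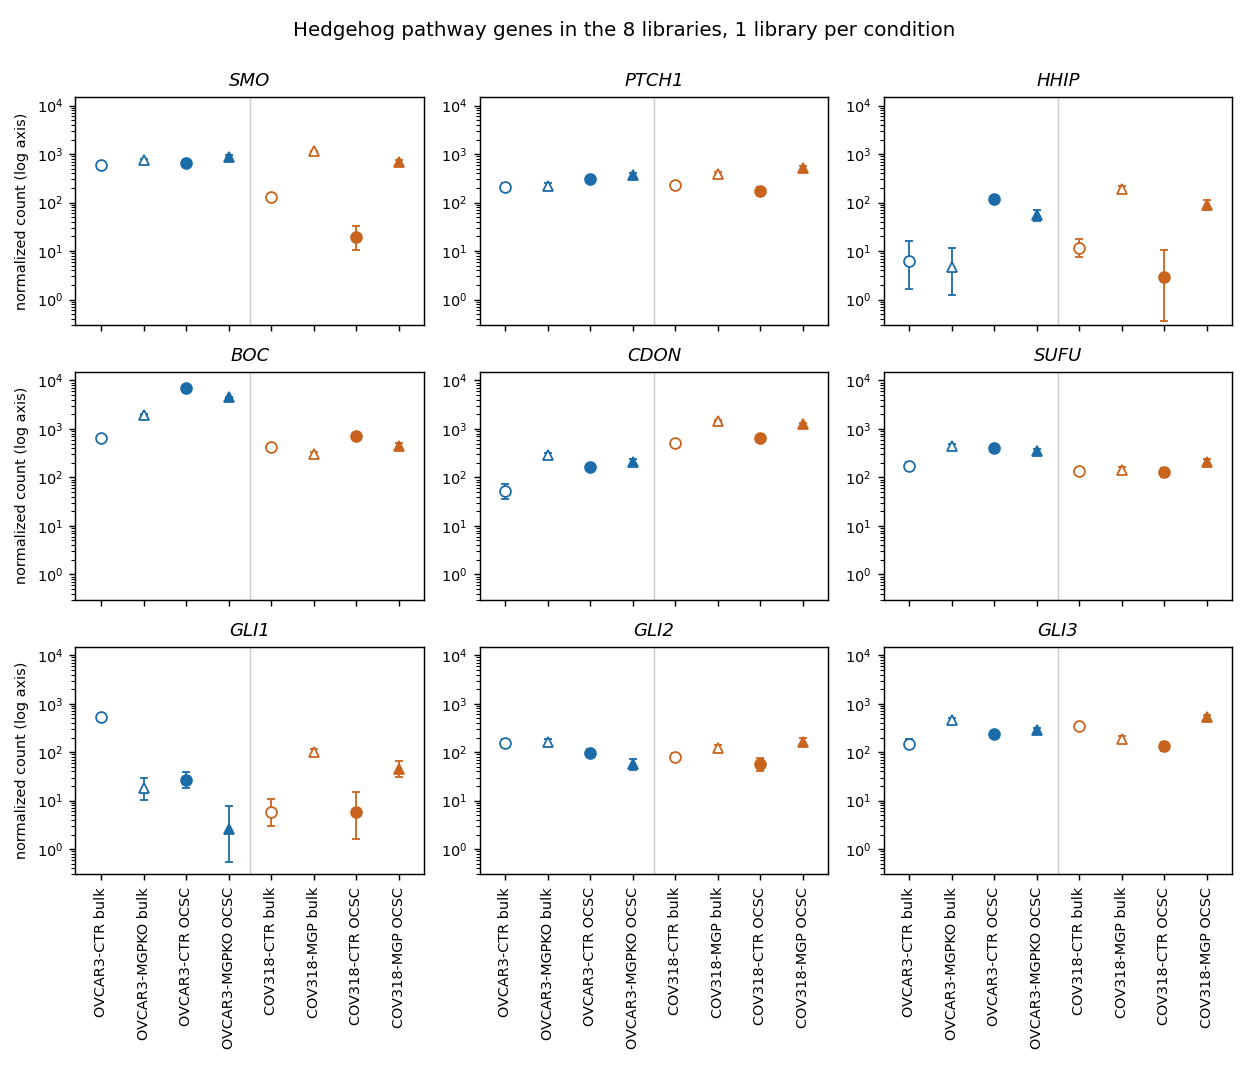
Normalized counts (log axis) of the 9 Hedgehog genes in each of the 8 libraries, OVCAR3 in blue and COV318 in orange, circles for CTR, triangles for MGPKO or MGP, open for bulk and filled for OCSC. Bars are 95% Poisson intervals of the count. GLI1 is highest in OVCAR3-CTR bulk at 521, HHIP runs from 2.97 to 195, and PTCH1 stays between 175 and 511.

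Levels of different genes were compared as normalized counts per kilobase of exon, over the union of the exons of each gene. BOC had the highest level per kilobase in 5 of the 8 libraries and SMO in the other 3, which were OVCAR3-CTR bulk and both COV318-MGP libraries. BOC reached 679 per kilobase in OVCAR3-CTR OCSC, and SMO reached 239.8 in COV318-MGP bulk. The receptor PTCH1 stood lower, between 10.1 and 29.6 per kilobase in all 8 libraries. HHIP was the lowest of the 9 in 5 libraries, at 0.249 to 7.55 per kilobase there. The levels depend on the length used, and with the longest protein-coding transcript in place of all exons the highest BOC level was 1510.1, that of SMO 286, that of CDON 158 in place of 72.3, and PTCH1 lay between 20.2 and 59.0. BOC was again the highest in 5 libraries and SMO in 3, and HHIP the lowest in 5.

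SMO carries the signal across the membrane. In OVCAR3 it had 609 normalized counts in CTR bulk, 742 in MGPKO bulk, 654 in CTR OCSC and 889 in MGPKO OCSC. COV318 had 131 in CTR bulk, 1139 in MGP bulk, 19.3 in CTR OCSC and 699 in MGP OCSC. The COV318-CTR libraries were thus the low ones, and the 4 OVCAR3 and 2 COV318-MGP libraries lay between 609 and 1139. The raw SMO count in COV318-CTR OCSC was 13.

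HHIP, which sequesters the ligands, had 6.17 normalized counts in OVCAR3-CTR bulk, 4.60 in MGPKO bulk, 116 in CTR OCSC and 55.1 in MGPKO OCSC. In COV318 the normalized counts were 11.8 in CTR bulk, 195 in MGP bulk, 2.97 in CTR OCSC and 90.2 in MGP OCSC. High values were found in the OVCAR3 spheres and in both COV318-MGP libraries, and the other 4 libraries had 22 counts or fewer. HHIP-AS1, an antisense gene that shares 813 exon bases with HHIP, had 5 to 65 counts. Whether counting used strand is not given in the sources used here, and without strand the reads of the 2 genes cannot be told apart where they overlap.

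PTCH1, receptor and target in the same gene, had 211 normalized counts in OVCAR3-CTR bulk, 223 in MGPKO bulk, 304 in CTR OCSC and 365 in MGPKO OCSC. In COV318 it had 236 in CTR bulk, 395 in MGP bulk, 175 in CTR OCSC and 511 in MGP OCSC. The 3 lowest neighbouring steps in the order of libraries, from COV318-CTR OCSC up to COV318-CTR bulk, did not exceed counting error.

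BOC was highest in the OVCAR3 spheres, where it led the 9 genes per kilobase. Normalized counts were 654 in OVCAR3-CTR bulk, 1932 in MGPKO bulk, 7016 in CTR OCSC and 4479 in MGPKO OCSC. In COV318 they were 434 in CTR bulk, 301 in MGP bulk, 727 in CTR OCSC and 449.5 in MGP OCSC. The 3 highest libraries were all OVCAR3, and OVCAR3-CTR bulk lay within counting error of COV318-CTR OCSC.

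CDON, the other co-receptor, was higher in COV318 than in OVCAR3. It had 52.4 normalized counts in OVCAR3-CTR bulk, 288 in MGPKO bulk, 161 in CTR OCSC and 209 in MGPKO OCSC. COV318 had 515 in CTR bulk, 1439.9 in MGP bulk, 638 in CTR OCSC and 1257 in MGP OCSC. All 4 COV318 libraries lay above all 4 OVCAR3 libraries, and each step in the order of the 8 exceeded counting error. The share of all genes that separate the lines this way was not counted. Between the control lines, 54.3% of all genes in bulk and 55.9% in OCSC were past 2-fold. Within a library, BOC was 12.9 to 83.8 times CDON per kilobase in OVCAR3. In COV318 the same ratio was 1.62 and 2.20 in CTR and 0.404 and 0.690 in MGP, bulk and OCSC in turn. The exon lengths behind these ratios depend on the annotation, and BOC shares 530 exon bases with CFAP44 on the opposite strand.

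SUFU, the negative regulator of GLI proteins, had 171 normalized counts in OVCAR3-CTR bulk and 355 to 438 in the other 3 OVCAR3 libraries. COV318 had 128 to 142 in CTR bulk, MGP bulk and CTR OCSC, and 208 in MGP OCSC. The library with the low OVCAR3 value had the highest GLI1. SUFU was lower still in COV318-CTR, at 135 in bulk and 128 in OCSC, where GLI1 was at 5.92 and 5.94. A link between the levels of SUFU and GLI1 was not tested.

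GLI2 ranged from 56.0 normalized counts in OVCAR3-MGPKO OCSC to 165 in COV318-MGP OCSC, and 6 of the 7 steps between neighbouring libraries were within counting error. GLI3 ranged from 131 in COV318-CTR OCSC to 524 in COV318-MGP OCSC. GLI1 had 521 normalized counts in OVCAR3-CTR bulk and 99.5 in COV318-MGP bulk, and 45.8 or fewer in the other 6 libraries.

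As a share of GLI1, GLI2 and GLI3 reads per kilobase, GLI1 made up 78.5% in OVCAR3-CTR bulk and 42.2% in COV318-MGP bulk. In the other 6 libraries it made up 2.04% to 16.7%. GLI3 had the largest share in those 6, from 48.3% in OVCAR3-CTR OCSC to 72.3% in OVCAR3-MGPKO OCSC. GLI2 lay between 14.0% and 40.4% throughout. In read counts, 338 of 538 GLI reads in OVCAR3-CTR bulk were GLI1 reads (62.8%, exact Clopper-Pearson 95% interval 58.6% to 66.9%), against 16 of 554 in OVCAR3-MGPKO bulk (2.89%, interval 1.66% to 4.65%). These shares compare genes within a library and need no scaling between libraries, but they shift with the exon lengths used.

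**Figure D2:**
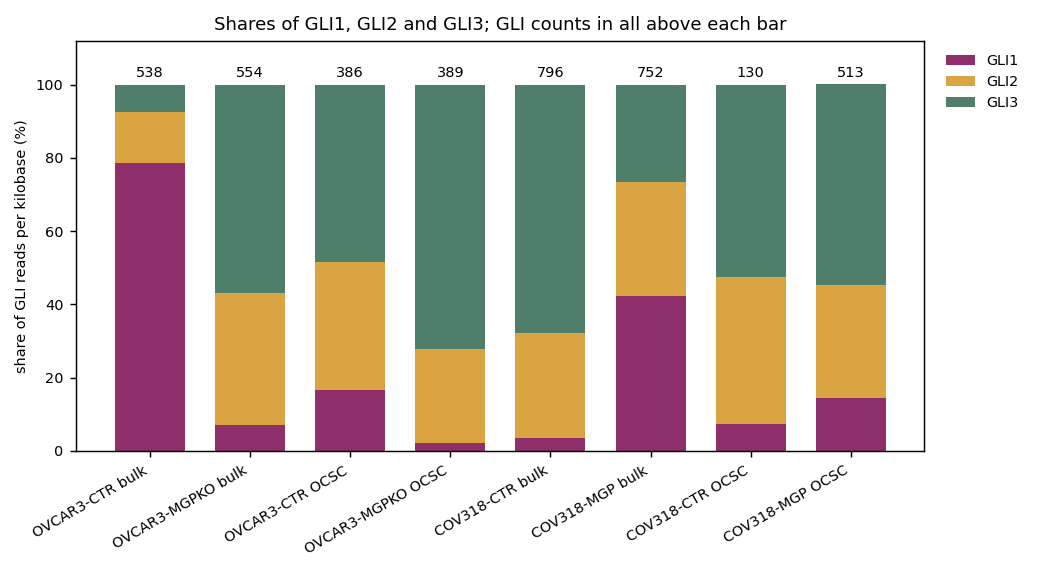
Shares (%) of GLI1, GLI2 and GLI3 among GLI reads per kilobase of exon in each library, as stacked bars, with the number of GLI counts above each bar. GLI1 takes 78.5% in OVCAR3-CTR bulk and 42.2% in COV318-MGP bulk, and GLI3 the largest share in the other 6 libraries.

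The OVCAR3-MGPKO libraries were compared with OVCAR3-CTR for the knockout arm of the study. MGP was at 0 counts in both bulk libraries, and at 1 in CTR and 2 in MGPKO OCSC. The comparison is therefore between these labelled populations, and a difference in MGP transcript could not be read from the counts. The paper reports MGP protein in OVCAR3 and checked its loss by RT-qPCR, western blot and immunofluorescence. In bulk cells both co-receptors, GLI3 and SUFU were higher in OVCAR3-MGPKO and GLI1 was lower, while the targets PTCH1 and HHIP differed by less than counting error. Values are log2 fold changes of normalized counts with 1 added, and a difference is counted as 2-fold from a log2 fold change of 1. CDON was higher by 2.44 (interval of the ratio 1.94 to 3.02), GLI3 by 1.59 (1.27 to 1.93), BOC by 1.56 (1.41 to 1.72) and SUFU by 1.35 (1.05 to 1.67). Thus 4 of the 9 genes were 2-fold higher, against 15.1% of 17501 genes, and 1 was 2-fold lower, against 9.0%. The log2 fold change of GLI1 was -4.75 (-5.65 to -4.10), from 338 counts to 16. PTCH1 stood at 0.08 (-0.25 to 0.40), HHIP at -0.36 (-2.85 to 2.00) with 4 counts in each library, SMO at 0.28 (0.10 to 0.47) and GLI2 at 0.04. The median over the 9 genes was 0.28, against 0.03 over all genes.

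In OCSC of the same pair none of the 9 genes was 2-fold higher, against 9.17% of 17545 genes, and 2 were 2-fold lower, against 5.69%. Those 2 were GLI1 and HHIP. GLI1 had 29 counts in CTR and 3 in MGPKO, a log2 fold change of -2.95 with an interval of -5.73 to -1.68. HHIP had 124 and 63 counts, -1.06 (-1.53 to -0.62), just past the 2-fold line. BOC, higher in MGPKO than in CTR in bulk, was at -0.65 (-0.70 to -0.60) in OCSC. CDON at 0.37, GLI3 at 0.25, SUFU at -0.18, SMO at 0.44, PTCH1 at 0.26 and GLI2 at -0.77 were all within 2-fold. The median over the 9 was -0.18, against -0.00 over all genes. The 4 genes past 2-fold higher in bulk were not past it in OCSC, where 9.17% of all genes were 2-fold higher. How many of all genes higher in bulk were also higher in OCSC was not counted. The difference between the cultures could not be tested with single libraries.

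Ectopic MGP in COV318 was compared with the empty vector for the reverse manipulation. SMO, HHIP, GLI1 and CDON were higher in COV318-MGP in bulk, and in OCSC the 6 genes SMO, HHIP, GLI1, GLI3, PTCH1 and GLI2 were higher. No gene of the 9 was 2-fold lower in either culture. In bulk 4 of 9 were 2-fold higher, against 24.5% of 19682 genes, and 0 were lower, against 26.3%. In OCSC 6 of 9 were higher, against 27.0% of 18842 genes, and 0 were lower, against 27.3%. About every second gene of the table was thus past 2-fold in these comparisons, 50.8% in bulk and 54.2% in OCSC.

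SMO had the widest difference of the 9 in OCSC, from 13 counts to 488, a log2 fold change of 5.11 (4.39 to 6.10). In bulk it stood at 3.11 (2.92 to 3.31). HHIP stood at 3.93 (3.42 to 4.73) in bulk. In OCSC, against 2 counts in the control, the value for HHIP was 4.52 with an interval of 3.01 to 8.00. PTCH1, the third target, was at 0.74 in bulk and 1.54 (1.24 to 1.86) in OCSC. GLI1 stood at 3.86 (3.20 to 5.10) and 2.75 (1.45 to 4.91). The co-receptors went apart, with CDON at 1.48 (1.37 to 1.59) in bulk and 0.98 (0.81 to 1.15) in OCSC, and BOC at -0.52 (-0.68 to -0.37) and -0.69 (-0.90 to -0.49). GLI3 was at -0.85 (-1.04 to -0.66) in bulk and at 1.99 (1.66 to 2.35) in OCSC, on opposite sides of no change. GLI2 was at 0.62 and 1.53 (1.0 to 2.11), and SUFU at 0.08 and 0.70. The medians over the 9 genes were 0.74 in bulk and 1.54 in OCSC, against -0.04 and 0.00 over all genes.

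Read across both lines, GLI1 was lower in OVCAR3-MGPKO and higher in COV318-MGP in bulk and in OCSC. HHIP had that pattern in OCSC, with -1.06 in OVCAR3 and 4.52 in COV318. CDON was higher in MGPKO and in COV318-MGP alike, by 2.44 and 1.48 in bulk, and BOC was at 1.56 and -0.52 there. SMO had positive values in all 4 comparisons. PTCH1 did too, at 0.08 and 0.26 in OVCAR3 and 0.74 and 1.54 in COV318. The interval of its first value, -0.25 to 0.40, reached no change. The share of all genes with each of these patterns was not counted. In COV318-MGP 50.8% of all genes in bulk and 54.2% in OCSC were past 2-fold.

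**Figure D3:**
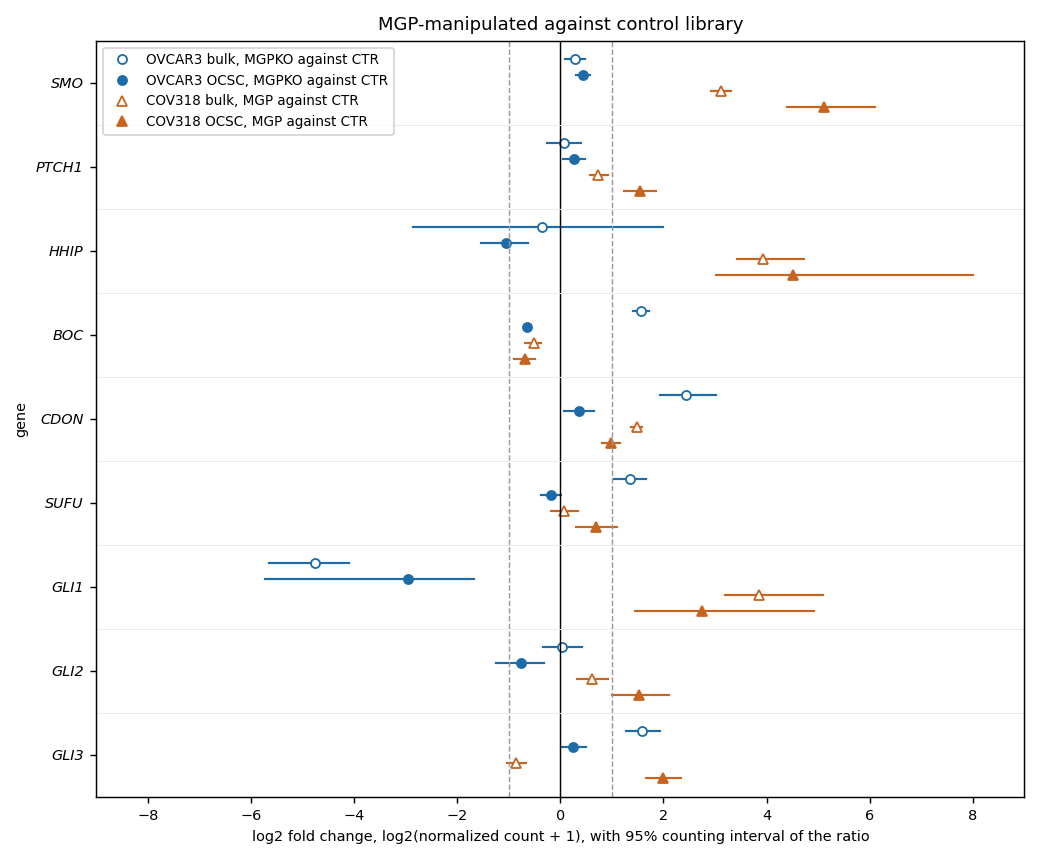
Log2 fold change of each of the 9 genes between the MGP-manipulated and the control library (x axis, normalized counts with 1 added), OVCAR3 as circles and COV318 as triangles, open for bulk and filled for OCSC. Lines are 95% counting intervals of the ratio and dashed lines mark 2-fold. GLI1 is left of the line in OVCAR3 (-4.75, -2.95) and right of it in COV318 (3.86, 2.75), and SMO in COV318 OCSC lies farthest right at 5.11.

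The culture comparison asked how spheres differ from adherent cells, a contrast that can be made in 4 pairs. BOC was higher in OCSC in all 4 pairs, by 3.42 (3.28 to 3.57) in OVCAR3-CTR, 1.21 (1.13 to 1.29) in OVCAR3-MGPKO, 0.74 (0.58 to 0.91) in COV318-CTR and 0.58 (0.37 to 0.78) in COV318-MGP. Of 14946 genes, 7.95% were higher in OCSC in all 4 pairs. Without the COV318-MGP pair, a choice made after seeing the data, BOC was higher in 3 of 3 pairs, as were 17.6% of 15815 genes. BOC is a cell surface protein of the immunoglobulin and fibronectin type III family.

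HHIP had values of opposite sign in the lines. It was higher in OCSC by 4.03 (2.84 to 6.13) in OVCAR3-CTR, from 4 counts to 124, and by 3.32 (2.16 to 5.50) in OVCAR3-MGPKO, from 4 to 63. In COV318-CTR it stood at -1.69 (-5.13 to 0.03) with 22 counts in bulk and 2 in OCSC, an interval that reaches no change, and in COV318-MGP at -1.11 (-1.52 to -0.72). HHIP and BOC were both 2-fold higher in OCSC in the 2 OVCAR3 pairs, as were 4.22% of 16899 genes. SMO was within 2-fold in OVCAR3, at 0.10 (-0.08 to 0.29) and 0.26 (0.12 to 0.40). In COV318 it was lower in OCSC, at -2.70 (-3.70 to -1.97) in CTR and -0.70 (-0.85 to -0.56) in MGP.

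GLI1 and HHIP went opposite ways in the OVCAR3 spheres. GLI1 was lower in OCSC in OVCAR3-CTR, at -4.22 (-4.87 to -3.72), and in OVCAR3-MGPKO, at -2.42 (-5.23 to -1.0), where HHIP was higher. PTCH1 was at 0.52 and 0.71 in those pairs. The OVCAR3-CTR bulk library was the reference for the GLI1 values of -4.22 here, -4.75 in OVCAR3-MGPKO bulk and -6.24 in COV318-CTR bulk. These values share that library and are not independent of each other. The same holds for CDON, GLI3, SUFU and BOC, which were lower in OVCAR3-CTR bulk than in the other OVCAR3 libraries. GLI1 was at 0.00 (-2.10 to 1.76) in COV318-CTR, with 11 and 4 counts, and at -1.10 (-1.71 to -0.57) in COV318-MGP. GLI3 was at 0.65 (0.31 to 1.0) in OVCAR3-CTR, the same side as HHIP, and at -0.69 in OVCAR3-MGPKO. The 3 genes most often read as pathway output therefore had values of different sign in OVCAR3.

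GLI2 was at -0.70 in OVCAR3-CTR, -1.52 in OVCAR3-MGPKO, -0.51 in COV318-CTR and 0.40 in COV318-MGP. In COV318 GLI3 was at -1.38 in CTR and 1.46 in MGP. CDON was at 1.60, -0.46, 0.31 and -0.20 over the 4 pairs in that order. SUFU was at 1.23 in OVCAR3-CTR and between -0.30 and 0.54 in the other pairs. GLI3 in the COV318-MGP pair was the single gene of the 9 past 2-fold higher there.

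The culture difference was tested over the 4 pairs with edgeR's quasi-likelihood test, the population as a block, a test added after these values had been seen. These 4 populations were 2 lines and a derivative of each, so the pairs were not independent. None of the 9 genes had a Benjamini-Hochberg adjusted p below 0.05, and of 15586 genes 0 did, or 0%, while 1207 had an unadjusted p below 0.05. BOC was higher in OCSC in 4 of 4 pairs, by 1.43 (SE 0.46) on the log2 scale in this edgeR fit, with an unadjusted p of 0.016 and an adjusted p of 0.56. GLI1 was at -2.21 (SE 0.75), with an edgeR adjusted p of 0.58. The difference between the lines in this contrast, OVCAR3 minus COV318, was 5.29 (SE 0.88) for HHIP, with an edgeR unadjusted p of 0.00043 and an adjusted p of 0.21, and 2 of 15586 genes (0.0128%), LRRC17 and DKK2, named here after their values were seen, were past the threshold.

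Counted by pair, 4 of 9 genes were 2-fold higher in OCSC and 1 lower in OVCAR3-CTR, against 14.3% and 13.2% of 17230 genes. In OVCAR3-MGPKO 2 were higher and 2 lower, against 8.33% and 10.8% of 17789 genes. In COV318-CTR 0 were higher and 3 lower, against 10.9% and 10.1% of 18301 genes. In COV318-MGP 1 was higher and 2 lower, against 10.3% and 9.36% of 17932 genes. In this last pair the split of all genes past 2-fold moved from 52.3% higher to 35.0% higher when counts were scaled to library totals instead. The summed normalized count of the 9 genes was 9015 in OVCAR3-CTR OCSC and 2533 in OVCAR3-CTR bulk, with BOC alone at 7016 in the former.

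**Figure D4:**
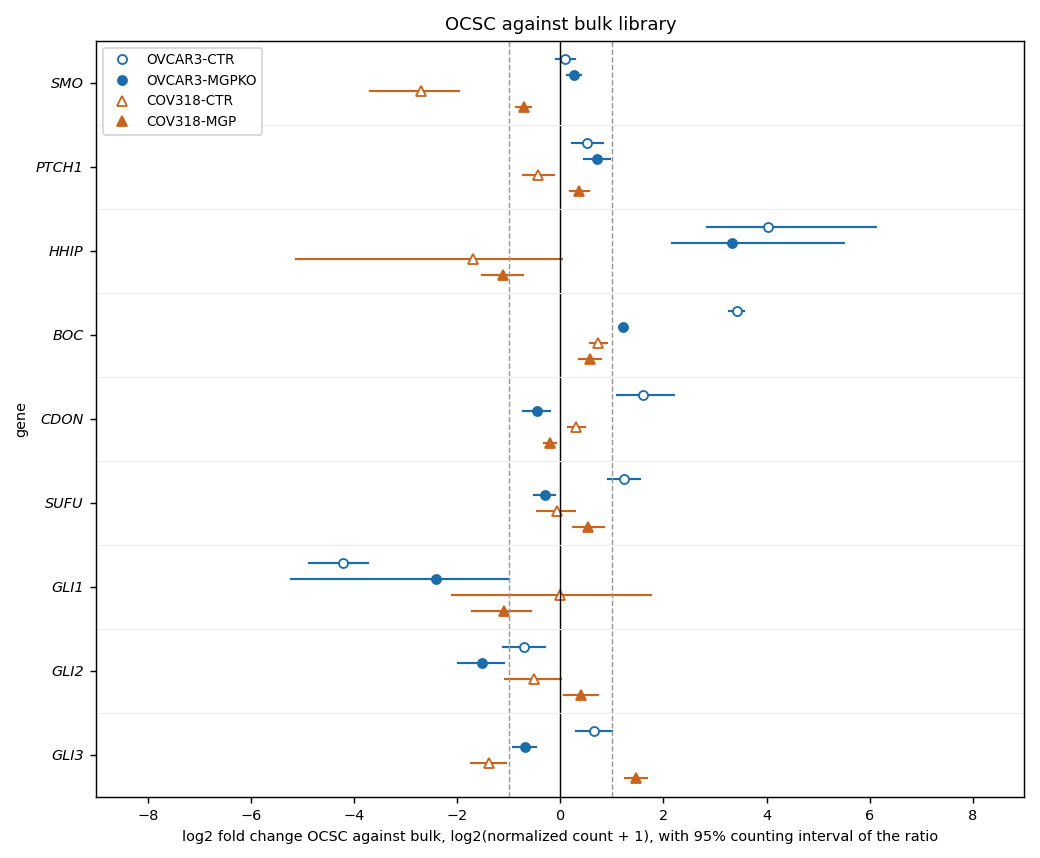
Log2 fold change of each gene between the OCSC and the bulk library of the same cells (x axis, normalized counts with 1 added), OVCAR3 as circles and COV318 as triangles, open for CTR and filled for MGPKO or MGP. Lines are 95% counting intervals of the ratio and dashed lines mark 2-fold. BOC is right of no change in all 4 pairs (0.58 to 3.42), and HHIP is right of it in OVCAR3 (4.03, 3.32) and left of it in COV318 (-1.69, -1.11).

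The control lines were compared with each other to show how the pathway differs before any manipulation of MGP. In bulk, COV318-CTR had lower GLI1, at -6.24 (-7.48 to -5.60), and lower SMO, at -2.20 (-2.45 to -1.98), than OVCAR3-CTR. CDON was higher by 3.27 (2.80 to 3.84) and GLI3 by 1.17 (0.87 to 1.5). Thus 2 of 9 were 2-fold higher and 2 lower, against 29.4% and 24.8% of 19031 genes. BOC was at -0.59, GLI2 at -0.95, PTCH1 at 0.16, SUFU at -0.34 and HHIP at 0.84 (-0.62 to 2.94).

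In OCSC, 5 of the 9 genes were 2-fold lower in COV318-CTR, against 26.9% of 18587 genes, and 1 was 2-fold higher, against 29.0%. SMO was at -5.01 (-6.00 to -4.30), BOC at -3.27 (-3.41 to -3.14), GLI1 at -2.02 (-4.16 to -0.68) and SUFU at -1.65 (-2.01 to -1.32). HHIP, with 2 counts in COV318-CTR, was at -4.88 with an interval of -8.34 to -3.40. CDON was the gene that was higher, by 1.97 (1.72 to 2.24). GLI3 was at -0.85 (-1.23 to -0.50), the opposite side from bulk, PTCH1 at -0.79 and GLI2 at -0.76. In both cultures, then, COV318-CTR had less SMO and GLI1 and more CDON transcript than OVCAR3-CTR, with GLI1 at 11 and 4 counts in COV318-CTR. In RNA from whole cultures, fewer cells that express a gene and less of its RNA per cell cannot be told apart.

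The rest of the pathway was read from lists of genes. Of the ligands, SHH and IHH were not among the genes analysed here, and DHH had 0 to 19 counts over the 8 libraries. SCUBE1, which helps release Hedgehog ligands, had 0 counts in COV318-CTR bulk and 230 in COV318-MGP bulk, and the lower limit of the log2 ratio was 5.98. DISP2, a relative of the ligand exporter DISP1, was higher by 2.25 in OVCAR3-MGPKO bulk. In all, 5 of 7 genes of ligand processing and release above 3 counts were 2-fold higher in COV318-MGP bulk and 0 lower, against 24.5% and 26.3% of all genes. In OCSC 5 were higher and 1 lower, against 27.0% and 27.3%.

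Of 6 other receptors and co-receptors, 4 were 2-fold higher and 1 lower in COV318-MGP in each culture, against 24.5% and 26.3% of all genes in bulk and 27.0% and 27.3% in OCSC. The glypicans GPC3, GPC5 and GPC6, cell surface proteoglycans, were among the higher, with 3, 1 and 1 counts in COV318-CTR OCSC and 2152, 127 and 943 in COV318-MGP OCSC. LRP2, a large endocytic receptor, was the lower, at -1.35 and -3.43. LRP2 was also lower in OVCAR3-MGPKO, at -1.77 in bulk and -2.12 in OCSC, and higher in OCSC than in bulk of OVCAR3-CTR by 2.69. GAS1, a co-receptor like BOC and CDON, was higher by 1.16 in OVCAR3-MGPKO OCSC. In that comparison 2 genes of this list were higher and 1 lower of 6, against 9.17% and 5.69% of all genes.

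Intracellular regulators of SMO and GLI were mostly within 2-fold in the MGP and culture comparisons. Of 22, 7 were higher and 1 lower in COV318-MGP in each culture, where 24.5% and 27.0% of all genes were higher and 26.3% and 27.3% lower. The share of higher regulators was thus near that of all genes, and the share of lower ones was below it. The largest differences were those of KIF7, a ciliary kinesin, higher by 3.97 in OCSC and EVC, a ciliary partner of SMO, by 3.49 in bulk. In OVCAR3-MGPKO 1 of 22 was higher and 1 lower in bulk, against 15.1% and 9.0% of all genes. In OCSC 0 of 21 were past 2-fold, where 9.17% of all genes were higher and 5.69% lower. Between the control lines 5 of 22 were higher and 5 lower in COV318-CTR bulk, against 29.4% and 24.8% of all genes, and 4 of 21 higher and 7 lower in OCSC, against 29.0% and 26.9%. Of 18 genes of the primary cilium, none was past 2-fold in OVCAR3-MGPKO in either culture. Among all genes the shares past 2-fold were 24.1% in bulk and 14.9% in OCSC. In COV318-MGP 6 of the 18 cilium genes were higher and 1 lower in bulk and 5 and 1 in OCSC. The higher shares were again near those of all genes and the lower ones below them. Among the higher were INPP5E (2.36, OCSC), TCTN1 (2.16, bulk) and CEP290 (2.16, bulk). Between OCSC and bulk, 0 or 1 cilium gene was past 2-fold in each of the 4 pairs. Of all genes, 27.5% and 19.2% were past it in OVCAR3-CTR and OVCAR3-MGPKO, and 21.0% and 19.6% in COV318-CTR and COV318-MGP.

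Of the reported GLI target genes other than the 9, 15 were above 3 counts in OVCAR3. In OVCAR3-MGPKO 3 were 2-fold higher and 0 lower in bulk, where GLI1 was lower, against 15.1% and 9.0% of all genes. In OCSC 0 of 15 were higher and 5 lower, against 9.17% and 5.69%. HEY2, a transcription factor, was at 1.77 in bulk and -1.31 in OCSC. In COV318-MGP 10 of 20 were higher and 7 lower in bulk, against 24.5% and 26.3% of all genes, and 13 higher and 4 lower in OCSC, against 27.0% and 27.3%. SNAI2 had 0 counts in COV318-CTR bulk and 608 in COV318-MGP bulk, with a lower limit of the log2 ratio of 7.39. FOXF1 had 0 and 184 in OCSC, with a lower limit of 5.57. SPP1, which encodes osteopontin, was lower, from 1378 counts to 2 in OCSC.

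The pattern of GLI1 over the 8 libraries was set beside that of 15302 genes, by the root-mean-square difference of centred log2 values. The 5 genes most like it were CCDC170 (0.64), INHBE (1.08), DDIT4 (1.2), RNF182 (1.2) and ULBP1 (1.2). These are distances over 8 libraries that share their size factors, and they say nothing of shared control. INHBE, which encodes an inhibin beta subunit, is the neighbour of GLI1. It ends 504 bases before GLI1 starts (chr12:57459785-57472268, plus strand, GENCODE 44 on the build of the files) and lies on the same strand.

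INHBE had 275 counts in OVCAR3-CTR bulk, 36 in MGPKO bulk, 5 in CTR OCSC and 7 in MGPKO OCSC. In COV318 it had 19 in CTR bulk, 374 in MGP bulk, 3 in CTR OCSC and 30 in MGP OCSC. GLI1 had 338, 16, 29 and 3 in OVCAR3 and 11, 181, 4 and 32 in COV318, in the same order. Both genes were thus high in OVCAR3-CTR bulk and COV318-MGP bulk. INHBE was at -3.33 (-3.90 to -2.85) where GLI1 was at -4.75, between MGPKO and CTR in OVCAR3 bulk. It was at 4.20 (3.67 to 5.08) and 3.01 (1.58 to 5.62) where GLI1 was at 3.86 and 2.75, between MGP and CTR in COV318 bulk and OCSC. In OVCAR3 OCSC the pair parted, with INHBE at 0.33 (-1.48 to 2.39) on 5 and 7 counts and GLI1 at -2.95. The ratio of GLI1 to INHBE counts was 0.429 to 1.33 in 7 libraries and 5.80 (2.22 to 19.2) in OVCAR3-CTR OCSC.

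ARHGAP9, which overlaps GLI1 on the opposite strand by 5 exon bases, had 186 counts in OVCAR3-CTR bulk and 14, 15 and 6 in the other OVCAR3 libraries. It was at -4.07 (-5.06 to -3.37) between MGPKO and CTR in bulk. In COV318 it had 2 to 8 counts and did not follow GLI1. All genes of the table within 100 kb of GLI1 were then listed, after these values had been seen. Of these 10 genes, 6 were 2-fold lower and 1 higher in OVCAR3-MGPKO bulk, the lower ones being INHBE, ARHGAP9, DDIT3, MBD6, MIR6758 and MIR616. That is against 9.0% and 15.1% of all genes in this comparison. MIR6758 rested on 17 counts in CTR and 6 in MGPKO. MIR616 lies 46894 bases from GLI1, on the strand of DDIT3 at 44319, and whether they share reads was not tested. In OVCAR3-MGPKO OCSC, where GLI1 was lower too, ARHGAP9 alone of the 10 was 2-fold lower and 0 were higher, against 5.69% and 9.17%. In COV318-MGP 3 were higher and 1 lower in bulk, against 24.5% and 26.3%, and 4 higher and 2 lower of 9 above 3 counts in OCSC, against 27.0% and 27.3%. In OCSC against bulk 6 were lower in OVCAR3-CTR and 4 in OVCAR3-MGPKO with 0 higher, against 13.2% and 10.8% lower among all genes. In the same contrast 1 was higher and 1 lower in COV318-CTR, against 10.9% and 10.1%, and 1 higher and 2 lower in COV318-MGP, against 10.3% and 9.36%. The 6 lower in OCSC of OVCAR3-CTR were the 6 lower in OVCAR3-MGPKO bulk, and both comparisons use the OVCAR3-CTR bulk library. Between the control lines 8 were lower and 0 higher in COV318-CTR bulk, against 24.8% and 29.4%, and 5 lower and 2 higher in OCSC, against 26.9% and 29.0%. DDIT3, a transcription factor of the cellular stress response, lies 44319 bases from GLI1. It was at -2.27 (-2.40 to -2.14) in OVCAR3-MGPKO bulk against CTR, and at -0.47 and -1.36 in COV318-MGP bulk and OCSC. MARS1, 3176 bases from GLI1, was at -0.26 in OVCAR3-MGPKO bulk and, in COV318-MGP bulk and OCSC, at 0.88 and 0.13. The files give counts per gene and not positions of reads, so the part of reads from INHBE or ARHGAP9 in the GLI1 counts was not tested.

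**Figure D5:**
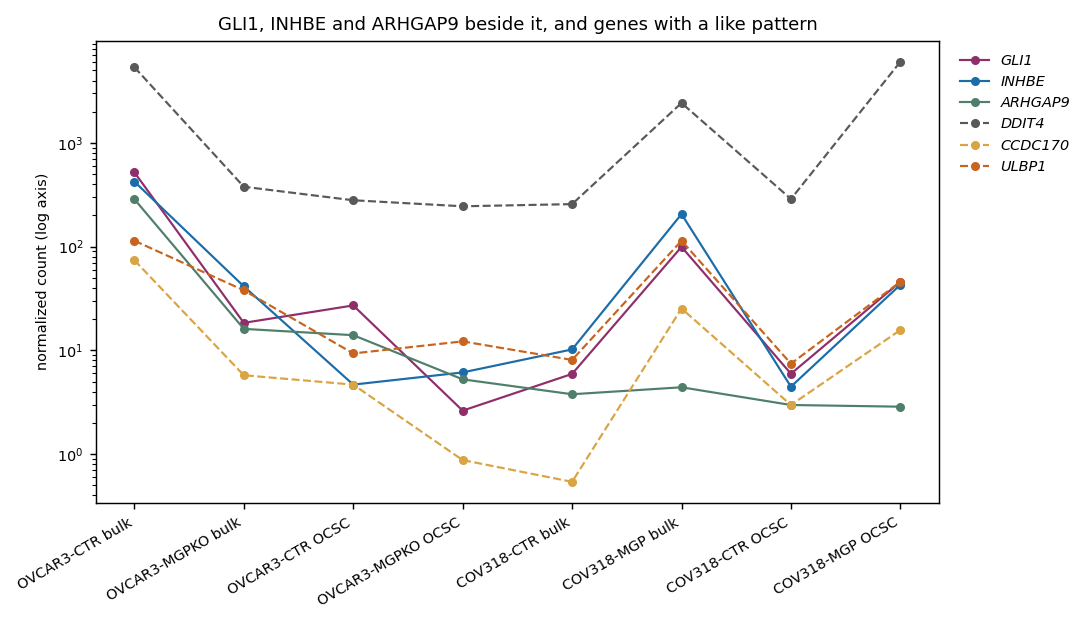
Normalized counts (log axis) in the 8 libraries of GLI1, of INHBE and ARHGAP9 beside it (solid lines), and of DDIT4, CCDC170 and ULBP1 (dashed), which are among the 5 genes with the most alike pattern. The lines join libraries only to guide the eye. GLI1, INHBE, DDIT4, CCDC170 and ULBP1 are all high in OVCAR3-CTR bulk and COV318-MGP bulk, and ARHGAP9 is high in OVCAR3-CTR bulk alone.

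PTCH1 and HHIP had other companions. The genes most like PTCH1 were DVL2 (0.14), ATP5MC2 (0.16), LAGE3 (0.17), USP30 (0.18) and TMEM185A (0.18), small distances that go with the narrow range of PTCH1. Those most like HHIP were ARMH4 (0.76), PAK3 (0.80), RAMP1 (0.89), AHRR (0.96) and PAQR8 (1.0). GLI1, PTCH1 and HHIP were in none of each other's lists of 5.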

How the data were processed

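RNA of 8 cultures was sequenced as paired reads by the authors, aligned to hg38 with STAR 2.7.5c and counted per gene, per the paper's methods and the submitters' processing notes. The labels name 3 library kits without saying which made which library, and the annotation and strand setting are not given in the sources used here. The deposited table holds raw counts, and the deposited files of single libraries hold a signal, counts divided by size factors. The table lists genes with at least 10 counts in 1 library.

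Median-of-ratios size factors were taken from the 15518 genes above 0 in all 8 libraries, and the normalized counts differed from the deposited values by less than 0.0001. Each comparison gave a log2 fold change of normalized counts plus 1 and an exact Clopper-Pearson 95% interval of the ratio of 2 counts. Tests added after the values were seen were edgeR's quasi-likelihood tests of OCSC against bulk with the population as a block, and of the same contrast between lines, on TMM-scaled counts of genes kept by filterByExpr, with the SE taken from the fold change and its F. A gene was called from 2-fold, against the share called among all genes above 3 counts in either library. From each list, at most 3 genes per kind of comparison were named, those with the largest difference given a higher library of 50 or more normalized counts and an interval that excluded no change. GPC5, GAS1, LRP2 and HEY2 were also given in comparisons beyond those. DHH was named as the ligand in the table. Genes most like GLI1, PTCH1 or HHIP were the 5 with the smallest root-mean-square difference. Genes of the ovarian, mesothelial and HEK293 lists were counted, and those of fibroblasts (4 lower, 0 higher of 6 above 3 counts in COV318-MGP bulk) and of leukocytes and endothelium (2 lower, 1 higher of 3) likewise. The members and lists were chosen with earlier results of these data known. Exon lengths and overlaps came from GENCODE 44. Python 3.11.15, scipy 1.17.1 and edgeR 4.0.16 in R 4.3.3 were used. The calculations were tested on simulated data. Alternatives were 3 other scalings, the deposited normalized values, 3 pseudocounts, 2 filters on low counts and 2 gene lengths.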

Additional observations from a re-analysis of the deposited data

Results flagged for a closer look

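HHIP was set apart because its difference between OCSC and bulk had opposite signs in the lines, with log2 fold changes of 4.03 and 3.32 in OVCAR3-CTR and OVCAR3-MGPKO and of -1.69 and -1.11 in COV318-CTR and COV318-MGP. SMO was set apart on the same ground, with 0.10 and 0.26 in OVCAR3 and -2.70 and -0.70 in COV318. The intervals of SMO in OVCAR3-CTR (-0.08 to 0.29) and of HHIP in COV318-CTR (-5.13 to 0.03) reached no change. Without COV318-MGP, COV318 has 1 pair for each of HHIP and SMO, at -1.69 and -2.70. The share of all genes with opposite signs in the lines was not counted. BOC was 1.56 in OVCAR3-MGPKO against CTR in bulk and -0.65 in OCSC. GLI3 was -0.85 in COV318-MGP against CTR in bulk and 1.99 in OCSC. GLI3 was also 1.17 in COV318-CTR against OVCAR3-CTR in bulk and -0.85 in OCSC. The difference between lines was tested with the 4 pairs as blocks, each line given by its control and a derivative of it. The edgeR adjusted p was 0.21 for HHIP (5.29, SE 0.88) and 0.52 for SMO (1.75, SE 0.63). The differences between cultures for BOC and GLI3 were not tested.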

How the results depend on the processing

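The 90 log2 fold changes, 9 genes in 10 comparisons, were recomputed under 9 alternatives. All 42 past 2-fold kept their sign wherever they were computed, 37 of them under the filter at 50 counts, and 1 of the others changed sign, SUFU in COV318-CTR OCSC against bulk, at 0.06 with counts scaled to library totals. Over the 3 other scalings the values moved by at most 0.30 (median 0.0349). Scaling to library totals moved the median of all genes by 0.14 and 0.12 in OVCAR3-MGPKO bulk and OCSC, by 0.29 in COV318-MGP bulk, by 0.14 and -0.21 in OCSC against bulk of COV318-CTR and COV318-MGP, and by 0.21 between the control lines in OCSC. TMM factors moved it by -0.12 in COV318-MGP OCSC against bulk. The number of the 9 genes past 2-fold in OVCAR3-MGPKO OCSC, 2, was 1 with library totals, with a pseudocount of 10 and with at least 50 counts in 1 library. In the other 9 comparisons that number stayed within 1.5 times. The GLI1 share per kilobase, with the longest protein-coding transcript in place of all exons, was 5.67%, 14.1% and 1.57% in OVCAR3-MGPKO bulk, OVCAR3-CTR OCSC and OVCAR3-MGPKO OCSC. It was 2.79%, 38.5%, 5.99% and 11.9% in COV318 CTR bulk, MGP bulk, CTR OCSC and MGP OCSC. Without correction for length, a step that by construction favours the longer GLI3, it was 62.8%, 2.89%, 7.51% and 0.771% in OVCAR3 CTR bulk, MGPKO bulk, CTR OCSC and MGPKO OCSC, and 1.38%, 24.1%, 3.08% and 6.24% in the same order of COV318. The paired test of culture, with the population as a block, called 0 of the 9 genes over the 4 pairs and 0 of them without any 1 pair. There BOC ranged from 0.82 (without OVCAR3-CTR) to 1.76 (without COV318-MGP) and GLI1 from -2.84 (without COV318-MGP) to -1.31 (without OVCAR3-CTR), and the lowest edgeR adjusted p of any of the 9 was 0.3, without COV318-MGP. The other comparisons have no residual spread, so no library was left out. Counts of 2 to 4 limit what HHIP and GLI1 can show at their low end.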
